A study of Sorghum bicolor with 12 samples.

Results

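The salt response that differs between the lines was measured here as the change from control to salt in Roma roots minus the same change in M-81E roots. M-81E is a sweet sorghum line described by the study as salt-tolerant, and Roma is described as salt-sensitive. Each kind of tolerance is represented by 1 line, so line and tolerance cannot be told apart. Seedlings at the three-leaf stage were grown without added NaCl (M-81E-CK and Roma-CK) or with 150 mM NaCl for 24 h (M-81E-salt and Roma-salt), the concentration being that of the study's methods. By those methods NaCl was raised in steps to this concentration before the 24 h, so the exposure to salt was longer than 24 h. Root RNA was sequenced in 3 libraries of each of the 4 groups. Members were the loci that carry a SORBI gene name and a mean of at least 1 FPKM (fragments per kilobase of locus, corrected for sequencing depth) over the 12 libraries. Of 34352 loci in the table, 30167 carry such a name, and 15250 of these were members, with 14917 below the limit. The member with the lowest mean had 1.0 FPKM and the locus nearest below the limit had 0.9993 FPKM. More than 1 gene name stood at 1110 members, whose FPKM cannot be divided between the genes, and 13341 members carried a GO term.

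Salt in the root medium lowers the water potential around the root and lets sodium and chloride into the cells, and roots are known to respond with osmolytes, protective proteins, altered water and ion transport, and altered growth. The plasma membrane proton pump builds the gradient that drives sodium export and nutrient uptake, aquaporins carry water across membranes, and abscisic acid and ethylene are hormones that relay the stress. Lines of 1 species can differ in whether such a gene responds at all, in how far it responds, or in the direction, and the test of the difference itself separates these cases from a response that merely passes a threshold in 1 line.

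Over the members, the correlation of log2(FPKM + 1) between libraries of a group was 0.882 to 0.907, and no pair of libraries held identical values. The median level over the members was 2.27 to 2.35 in the M-81E libraries and 2.55 to 2.69 in the Roma libraries on the log2(FPKM + 1) scale. Depth relative to M-81E-CK1 was 0.818 to 1.042, and the 3 Roma-CK libraries lay at 0.818, 0.883 and 0.933. The table holds no read counts and the depth itself is unknown, so no interval for counting error was computed. The description of only 1 locus holds the name of a root structure, SORBI_3008G159701 (ROOT HAIR DEFECTIVE 3 homolog 1-like), with 0.257 to 0.599 FPKM in M-81E-CK, 0.325 to 0.541 in M-81E-salt, 2.09 to 2.57 in Roma-CK and 3.02 to 3.64 in Roma-salt. That is the name of a gene, so its level is no measure of root hairs or of root tissue. No description names a chlorophyll a-b binding protein or the small subunit of ribulose bisphosphate carboxylase. The 29 members with a GO term of photosynthesis summed to 288 to 328 FPKM in M-81E-CK, 314 to 328 in M-81E-salt, 471 to 549 in Roma-CK and 348 to 393 in Roma-salt. These sums include the phosphofructokinases SORBI_3007G101800 and SORBI_3002G026300, which entered the list through a GO term. The part of leaf tissue in the results was not tested.

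The salt response differed between the lines at 362 members (2.37%) with an adjusted limma p under 0.05, where 1.81% of all 34352 loci were called. In RNA from whole roots, fewer cells of a type and less RNA per cell cannot be told apart. At 192 of them the response was higher in Roma and at 170 it was lower, against 1.01% and 0.795% of all loci. Where called members are counted below as higher or lower in Roma, the response is meant and not the level. With the libraries rescaled to a common median, 389 members were called and 64.3% of them were higher in Roma, compared with 53.0% in the fit as deposited, while the median difference over all members moved from -0.02 to 0.03 on the log2 scale. Without adjustment, 2925 members (19.2%) had a limma p under 0.05. The last member inside the call had an adjusted p of 0.0498 and the first outside had 0.0504. The number of calls was lower whenever 1 library was left out, and fell to 160 without M-81E-CK1, 153 without M-81E-CK2, 227 without M-81E-CK3, 161 without M-81E-salt1 and 188 without M-81E-salt2. It was 251 to 309 without any other library. In all 12 of these fits, 108 of the 362 members were called. A call described as kept only without certain libraries was lost when any other of the 12 was left out. How reads shared by near-identical genes were divided is not given in the sources used here, which touches families such as aquaporins, peroxidases, amino acid transporters and ribosomal proteins.

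Within the lines, the same fit called a salt response at 548 members in M-81E (262 up and 286 down, 3.59%) and at 1608 members in Roma (825 up and 783 down, 10.5%), where 2.42% and 7.34% of all loci were called. The median absolute response over the members was 0.23 in M-81E and 0.25 in Roma on the log2(FPKM + 1) scale. Of 1690 members whose response was called in 1 line only, the difference between the lines was called at 305, so most loci that passed in a single line were not shown to differ. Both responses were called at 233 members, 215 in the same direction and 18 in opposite directions. The number called in M-81E fell to 271 without M-81E-CK1, 276 without M-81E-CK2, 306 without M-81E-CK3, 275 without M-81E-salt1, 328 without M-81E-salt2 and 361 without Roma-salt1, and the number called in Roma fell to 1053 without Roma-CK2 and 951 without Roma-salt3.

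The called members were divided by the 2 fitted responses into 6 classes, which use the tested values and carry no test of their own. A member was placed in an opposite class where the responses had different signs and each had an unadjusted limma p under 0.05, and otherwise in the class of the line with the larger response. The response was stronger in Roma at 181 members, 99 with a rise and 82 with a fall there, and stronger in M-81E at 37 members, 13 with a rise and 24 with a fall. At 144 members the responses went in opposite directions, 69 down in M-81E and up in Roma, and 75 up in M-81E and down in Roma. Without 1 library the classes held 39 to 93 and 25 to 75 members (stronger in Roma, up and down), 6 to 19 and 13 to 27 (stronger in M-81E, up and down), 36 to 60 (down in M-81E and up in Roma) and 25 to 68 (up in M-81E and down in Roma). The lowest number in each class came without M-81E-CK2, M-81E-CK2, Roma-salt1 or Roma-salt2, M-81E-salt2, M-81E-salt1 and M-81E-CK2, in that order. Of the 362 called members, 28 reached a mean of 1 FPKM in 1 group only, and those named here are SORBI_3001G109000, SORBI_3002G246200, SORBI_3003G292400, SORBI_3006G194200, SORBI_3007G055600, SORBI_3007G109800 and SORBI_3010G101300. They entered the members through the group in which they were high, so their calls are given as descriptions. SORBI_3002G316900 and SORBI_3005G210100 reached 1 FPKM in another group too, but their mean over the 12 libraries passed the limit through Roma-salt. Their calls are likewise descriptions. The plot of both responses shows that the called members lay away from the line of equal response and mostly along the Roma axis or in the 2 fields of opposite sign.

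**Figure D1:**
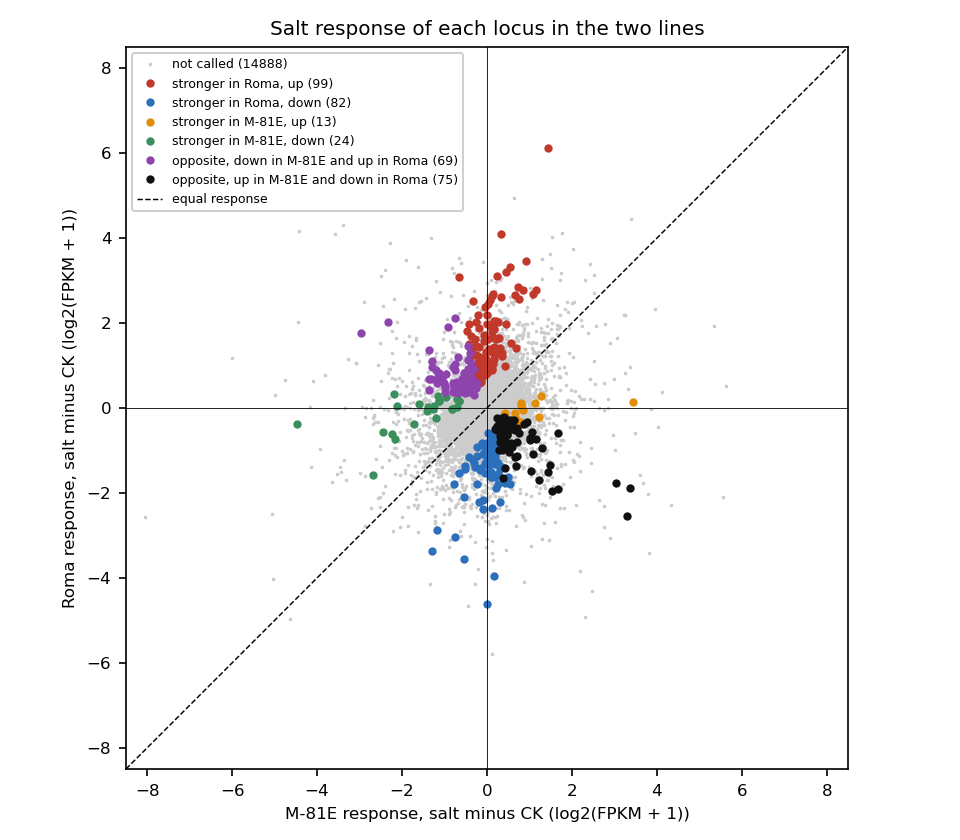
Fitted salt response of each of the 15250 members in M-81E (x axis) and Roma (y axis), salt minus CK on the log2(FPKM + 1) scale; each point is a locus, colours mark the 6 classes of the 362 called members, grey points were not called, and the dashed line marks equal responses. LEA3 (SORBI_3009G215700) is the red point at 1.44 in M-81E and 6.12 in Roma.

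Levels over the 4 groups differed in shape between the classes. Members with the stronger fall in Roma had a median of 3.41 FPKM in both M-81E-CK and M-81E-salt, 10.8 in Roma-CK and 3.68 in Roma-salt, and 69 of the 82 were called higher in Roma-CK than in M-81E-CK while 0 were called lower. The members up in M-81E and down in Roma had medians of 5.84, 9.33, 10.5 and 5.72 FPKM in the same order of groups, and 59 of 75 were called higher in Roma-CK. For the members down in M-81E and up in Roma, the medians were 14.3, 7.97, 6.39 and 12.3 FPKM, and 47 of 69 were called lower in Roma-CK. Members with the stronger rise in Roma had medians of 3.05, 3.37, 2.24 and 9.52 FPKM, and 74 of 99 were called higher in Roma-salt than in M-81E-salt. Each of these line differences shares its libraries with the tested difference, so the counts describe the levels and are no separate evidence. The share of all loci called for these line differences is not given here. The counts therefore cannot be read as a trait of the classes.

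**Figure D2:**
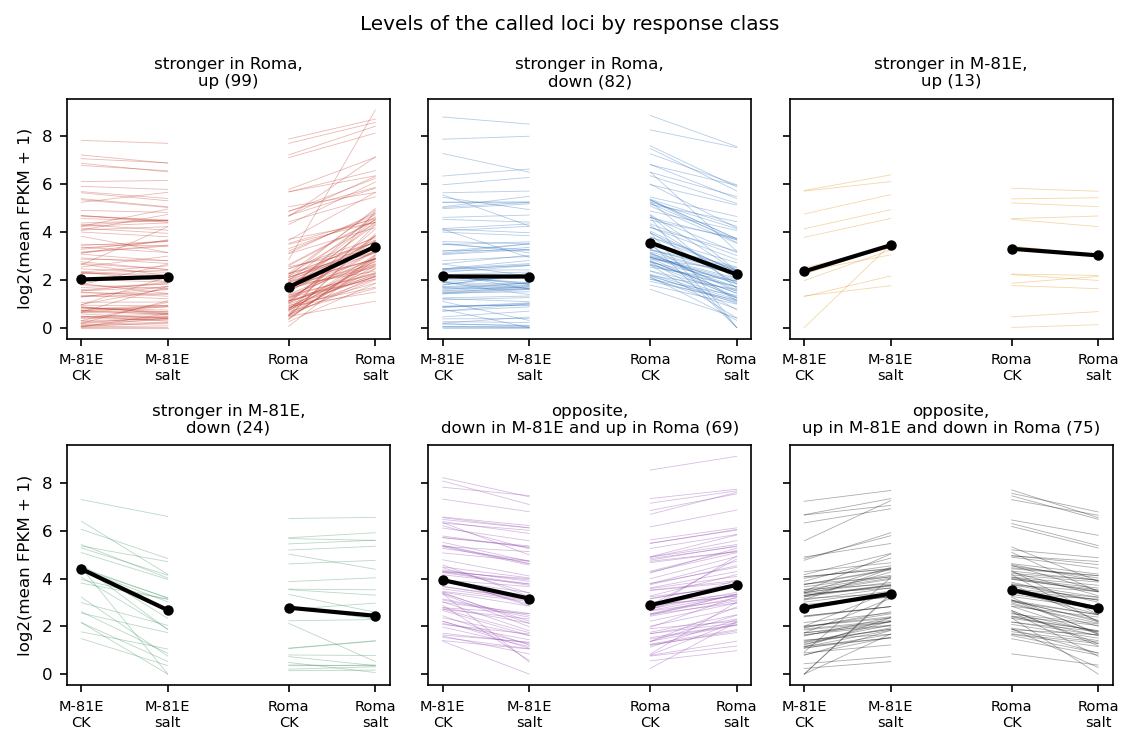
Level of each called member in the 4 groups, as log2(mean FPKM + 1), in 6 panels by class; thin lines are loci, joined within a line of sorghum, and black points are medians over the class. The median of members with the stronger fall in Roma starts at 10.8 FPKM in Roma-CK and reaches 3.68 FPKM in Roma-salt, close to both M-81E groups.

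Among the 99 members that rose more in Roma, the widest difference was at the LEA3 locus SORBI_3009G215700, a late embryogenesis abundant protein of the kind that protects cell contents during water loss. It was at 5.54, 5.40 and 4.63 FPKM in M-81E-CK, 16.4, 28.3 and 8.32 FPKM in M-81E-salt, 5.43, 7.43 and 5.74 FPKM in Roma-CK and 335, 398 and 920.0 FPKM in Roma-salt. All Roma-salt libraries lay far above all others, and Roma-salt3 was the highest. The difference was 4.68 (SE 0.62, adjusted p = 0.00864) and was called without each of the 12 libraries in turn. Sugars of the raffinose family are known as compatible solutes, and both called members of this group, which was chosen after the values were seen, moved the same way. SORBI_3003G052300, annotated with the galactosyltransferase activity that makes raffinose from sucrose, was at 11.2, 5.48 and 6.72 FPKM in M-81E-CK, 10.2, 9.65 and 9.22 FPKM in M-81E-salt, 1.66, 2.35 and 2.71 FPKM in Roma-CK and 17.9, 22.2 and 16.6 FPKM in Roma-salt. Its Roma-salt libraries exceeded all other libraries and its M-81E groups overlapped, with a difference of 2.29 (SE 0.31, adjusted p = 0.00953). SORBI_3005G210100, annotated with the activity that adds galactose to raffinose, was at 0.563, 0.558 and 0.596 FPKM in M-81E-CK, 0.879, 0.681 and 0.924 FPKM in M-81E-salt, 1.32, 1.33 and 0.863 FPKM in Roma-CK and 6.25, 7.05 and 11.2 FPKM in Roma-salt, a difference of 1.83 (SE 0.26, adjusted p = 0.0112). Both calls held without each of the 12 libraries in turn. The mean of SORBI_3005G210100 over all libraries passed 1 FPKM through Roma-salt, where it was high, so its call is given as a description. Over the 10 members of this group, the median response was -0.05 in M-81E and 1.09 in Roma, with 4 called up and 2 called down in Roma and 3 called down in M-81E. Of all members, 10.5% were called in Roma and 3.59% in M-81E.

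Several membrane transporters rose in Roma and did not pass the test in M-81E. SORBI_3004G260500, annotated as a nitrate and oligopeptide transporter, was at 1.88, 1.93 and 2.21 FPKM in M-81E-CK, 2.68, 2.61 and 2.38 FPKM in M-81E-salt, 0.997, 1.26 and 0.858 FPKM in Roma-CK and 17.6, 15.2 and 16.6 FPKM in Roma-salt. None of the 4 groups overlapped with another, with Roma-CK lowest, M-81E-CK and then M-81E-salt above it, and Roma-salt far above all. Its difference of 2.86 (SE 0.14, adjusted p = 3.05e-05) had the lowest adjusted p among the named members without a 0. SORBI_3001G132400, a plasma membrane proton pump by its GO terms, was at 2.31, 2.74 and 2.35 FPKM in M-81E-CK, 5.95, 4.74 and 5.19 FPKM in M-81E-salt, 3.77, 3.21 and 3.37 FPKM in Roma-CK and 24.1, 23.2 and 44.9 FPKM in Roma-salt. CK and salt libraries did not overlap in either line, and the M-81E response was 0.86 (adjusted p = 0.0755) beside 2.77 in Roma. The difference was 1.91 (SE 0.30, adjusted p = 0.0182) and was called without each of the 12 libraries in turn. SORBI_3003G375900, a plasma membrane amino acid transporter, was at 25.0, 24.2 and 25.0 FPKM in M-81E-CK, 17.9, 20 and 26.6 FPKM in M-81E-salt, 5.0, 3.99 and 2.14 FPKM in Roma-CK and 19.0, 18.5 and 21.7 FPKM in Roma-salt. Its Roma-CK libraries were lowest of all, and Roma-salt reached the range of M-81E, with a difference of 2.40 (SE 0.31, adjusted p = 0.00806). SORBI_3008G059200, with the same annotation, had 68.3 ± 9.07 FPKM in M-81E-CK, 70.4 ± 1.82 in M-81E-salt, 28.0 ± 4.78 in Roma-CK and 75.0 ± 11.1 in Roma-salt (mean ± SD, n = 3), and again Roma-CK stood below the other groups, with a difference of 1.34 (SE 0.22, adjusted p = 0.0194). The zinc transporter SORBI_3006G212200 differed by 0.97 (SE 0.17, adjusted p = 0.0245), and that call was lost without library 1 or 2 of M-81E-CK or 1 or 3 of M-81E-salt (highest adjusted p = 0.0656).

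The malic enzyme SORBI_3003G292400, which makes pyruvate from malate, was also in this class and differed by 3.76 (SE 0.56, adjusted p = 0.0138). It reached the mean of 1 FPKM in Roma-salt only. SORBI_3002G316900, an aconitase that isomerises citrate and is in the salt stress and abscisic acid lists, was at 0.154, 0.167 and 0.0823 FPKM in M-81E-CK, 1.56, 1.21 and 0.779 FPKM in M-81E-salt, 0.627, 0.558 and 0.789 FPKM in Roma-CK and 12.1, 14.7 and 29.0 FPKM in Roma-salt. The 4 groups did not overlap between CK and salt in either line, and the rise in Roma was the larger (3.47 against 0.93 in M-81E, adjusted p = 0.121). The difference was 2.54 (SE 0.38, adjusted p = 0.0138) and was called without each of the 12 libraries in turn. The mean of this locus over all libraries passed 1 FPKM through Roma-salt, where it was high, so its call is given as a description. SORBI_3010G101300, annotated with pyruvate dehydrogenase activity and the salt stress response, had 0.141 ± 0.0692 FPKM in M-81E-CK, 0.370 ± 0.0803 in M-81E-salt, 0.756 ± 0.0981 in Roma-CK and 6.42 ± 2.71 in Roma-salt (mean ± SD, n = 3). Its mean over all libraries reached 1 FPKM through Roma-salt, the group in which it was high. Its difference of 1.76 (SE 0.29, adjusted p = 0.0223) was lost without library 1 or 2 of M-81E-CK or 2 of M-81E-salt (highest adjusted p = 0.0602).

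Among the regulators and growth-related members that rose in Roma, the transcription factor SORBI_3006G142000 was at 0.150, 0.120 and 0.287 FPKM in M-81E-CK, 0.337, 0.0709 and 0.481 FPKM in M-81E-salt, 2.94, 1.63 and 4.34 FPKM in Roma-CK and 17.5, 19.3 and 35.4 FPKM in Roma-salt. Salt and CK overlapped in M-81E and were separate in Roma, and the difference of 2.53 (SE 0.43, adjusted p = 0.0227) was lost without any 1 library of M-81E-CK or 1 or 2 of M-81E-salt (highest adjusted p = 0.0553). SORBI_3010G273700, a transcription factor annotated with leaf and inflorescence shape and the response to chitin, differed by 1.69 (SE 0.30, adjusted p = 0.027), and the call was lost without any 1 library of M-81E-CK, 1 of M-81E-salt or 1 or 3 of Roma-salt (highest adjusted p = 0.0663). SORBI_3002G361500, an auxin-responsive ligase by its annotation, had 109 ± 3.66 FPKM in M-81E-CK, 93.8 ± 20.2 in M-81E-salt, 138 ± 14.1 in Roma-CK and 281 ± 20.9 in Roma-salt (mean ± SD, n = 3). Its difference of 1.27 (SE 0.22, adjusted p = 0.0245) was lost without any 1 library of M-81E-CK or 2 of M-81E-salt (highest adjusted p = 0.0624). SORBI_3006G074200, annotated with lipid binding and transport outside the cell, was at 44.0, 36.0 and 39.4 FPKM in M-81E-CK, 31.8, 30.3 and 32.7 FPKM in M-81E-salt, 15.9, 27.5 and 28.9 FPKM in Roma-CK and 108, 151 and 163 FPKM in Roma-salt. Roma-salt exceeded all other groups, and the difference of 2.84 (SE 0.31, adjusted p = 0.00462) was called without each of the 12 libraries in turn. SORBI_3009G153000, a structural constituent of the cytoskeleton annotated with root hair elongation, had 29.0 ± 1.63 FPKM in M-81E-CK, 27.3 ± 5.27 in M-81E-salt, 10.6 ± 0.358 in Roma-CK and 22.6 ± 4.23 in Roma-salt (mean ± SD, n = 3), and its difference of 1.11 (SE 0.21, adjusted p = 0.0346) was kept only without library 3 of M-81E-salt or 1 of Roma-salt (highest adjusted p = 0.0807).

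Among the 82 members that fell more in Roma, loci annotated with the low-oxygen response, acid phosphatase activity and sugar breakdown appeared. SORBI_3008G177800, annotated with cysteine oxidation and the detection of hypoxia and thus an oxygen-sensing enzyme by its terms, was at 29.6, 29.1 and 38.1 FPKM in M-81E-CK, 36.8, 43.5 and 52.0 FPKM in M-81E-salt, 167, 158 and 259 FPKM in Roma-CK and 71.3, 70.1 and 33.3 FPKM in Roma-salt. Roma-CK was far higher than every other group, and Roma-salt lay above the M-81E range in 2 of 3 libraries. The difference was -2.20 (SE 0.43, adjusted p = 0.0373), and the call was kept only without any 1 library of Roma-salt (highest adjusted p = 0.0875). SORBI_3004G294400, an expansin-type cell wall loosening protein by its terms, was at 2.02, 2.44 and 2.12 FPKM in M-81E-CK, 1.40, 1.82 and 2.91 FPKM in M-81E-salt, 6.07, 11.99 and 11.9 FPKM in Roma-CK and 2.24, 0.720 and 0.534 FPKM in Roma-salt. Roma-CK was again the highest group while the M-81E groups overlapped, and the difference of -2.27 (SE 0.46, adjusted p = 0.0427) was kept only without library 1 of Roma-CK or 1 of Roma-salt (highest adjusted p = 0.0965). The E3 ubiquitin ligase SORBI_3001G234300, annotated as promoting the response to water deprivation, had 2.43 ± 0.986 FPKM in M-81E-CK, 3.87 ± 0.842 in M-81E-salt, 15.5 ± 2.35 in Roma-CK and 3.97 ± 1.78 in Roma-salt (mean ± SD, n = 3). Its difference of -2.32 (SE 0.41, adjusted p = 0.0285) was lost without library 2 of M-81E-CK, 1 or 3 of M-81E-salt, 1 or 3 of Roma-CK or 2 of Roma-salt (highest adjusted p = 0.07).

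Acid phosphatases release phosphate from organic compounds and are known to be induced when phosphate is short. In the phosphate nutrition list, 6 of 31 members (19.4%) were called for the difference, 2 higher and 4 lower in Roma, beside 2.37% of all members. In Roma 3 members of the list rose and 10 fell, and in M-81E 1 rose and 0 fell, where 10.5% and 3.59% of all members were called. The median responses were -0.21 in Roma and 0.06 in M-81E. The median level of the list was 2.31 to 2.46 in M-81E-CK, 2.26 to 2.40 in M-81E-salt, 3.45 to 3.58 in Roma-CK and 2.86 to 2.88 in Roma-salt on the log2(FPKM + 1) scale, so that Roma moved toward M-81E under salt and did not reach it. SORBI_3008G113000, an acid phosphatase annotated with the response to phosphate starvation, was at 30.8, 28.8 and 35.3 FPKM in M-81E-CK, 36.1, 38.0 and 37.0 FPKM in M-81E-salt, 47.1, 64.6 and 78.2 FPKM in Roma-CK and 24.2, 10.6 and 16.3 FPKM in Roma-salt. Roma-CK was the highest group and Roma-salt the lowest, with no overlap with either M-81E group. The difference of -2.10 (SE 0.37, adjusted p = 0.0265) was kept only without library 3 of M-81E-CK, 1 or 3 of Roma-CK or 1 or 2 of Roma-salt (highest adjusted p = 0.0664). SORBI_3007G211900, which by its terms makes the galactolipids that replace phospholipids during phosphate shortage, had 1.32 ± 0.0497 FPKM in M-81E-CK, 1.12 ± 0.375 in M-81E-salt, 10.9 ± 0.562 in Roma-CK and 3.48 ± 0.647 in Roma-salt (mean ± SD, n = 3), and its difference of -1.27 (SE 0.20, adjusted p = 0.0194) was lost without M-81E-CK2 (highest adjusted p = 0.0502). Among acid phosphatases, a group chosen after the values were seen, 5 of 35 members were called (14.3%, beside 2.37% of all members), 4 of them lower in Roma. SORBI_3001G442300, at 2.95, 4.15 and 6.24 FPKM in M-81E-CK, 5.51, 4.80 and 4.87 FPKM in M-81E-salt, 41.4, 38.5 and 38.8 FPKM in Roma-CK and 13.6, 11.5 and 11.3 FPKM in Roma-salt, differed by -1.83 (SE 0.26, adjusted p = 0.0109) and was called without each of the 12 libraries in turn. Its Roma-CK libraries were several times higher than all M-81E libraries, and Roma-salt lay between. SORBI_3003G314400, also annotated with phosphate starvation, differed by -1.09 (SE 0.20, adjusted p = 0.0305) and SORBI_3003G315166, described as an inositol phosphate kinase, by -1.56 (SE 0.31, adjusted p = 0.0406). The first of these calls was kept only without library 3 of M-81E-CK, 1 or 2 of Roma-CK or 1 of Roma-salt (highest adjusted p = 0.0758), and the second was kept only without library 1 or 3 of Roma-CK (highest adjusted p = 0.0949). The remaining called phosphatase, SORBI_3009G071000, went the other way and fell in M-81E, from 19.97 ± 1.81 to 7.13 ± 1.92 FPKM, while its 6 Roma libraries were at or below 0.218 FPKM, 1 of them listed at 0. Its difference of 1.42 (SE 0.24, adjusted p = 0.0241) was lost without any 1 library of M-81E-CK (highest adjusted p = 0.0602). At such Roma levels the log2(FPKM + 1) scale leaves little room for a fall in Roma.

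Glycolysis, another group chosen after the values were seen, had 15 of 65 members called down and 4 called up in Roma, beside 2 down and 2 up in M-81E. Over all 15250 members 783 were called down and 825 up in Roma, and 286 down and 262 up in M-81E. The difference itself was called at 5 of the 65 (7.69%, beside 2.37% of all members), 1 higher and 4 lower in Roma, so most of these falls were not shown to be particular to Roma. SORBI_3004G205100, a glyceraldehyde-3-phosphate dehydrogenase of glycolysis, was at 435, 418 and 496 FPKM in M-81E-CK, 338, 353 and 408 FPKM in M-81E-salt, 499.8, 468 and 444 FPKM in Roma-CK and 201, 196 and 174 FPKM in Roma-salt. The Roma-salt libraries were the lowest and the 2 CK groups overlapped, and the difference of -1.005 (SE 0.19, adjusted p = 0.0358) was kept only without library 3 of M-81E-CK or 3 of Roma-CK (highest adjusted p = 0.0852). The triose-phosphate isomerase SORBI_3003G352300 had 42.9 ± 3.90 FPKM in M-81E-CK, 29.7 ± 2.37 in M-81E-salt, 113 ± 18.6 in Roma-CK and 41.2 ± 4.62 in Roma-salt (mean ± SD, n = 3), and its difference of -0.91 (SE 0.19, adjusted p = 0.0474) was kept only without Roma-CK3 (highest adjusted p = 0.107). SORBI_3001G260800, an alanine aminotransferase annotated with the response to hypoxia, had 62.1 ± 2.09 FPKM in M-81E-CK, 77.1 ± 3.06 in M-81E-salt, 112 ± 26.2 in Roma-CK and 61.0 ± 6.15 in Roma-salt (mean ± SD, n = 3), and its difference of -1.15 (SE 0.21, adjusted p = 0.0309) was kept only without any 1 library of Roma-CK or 2 of Roma-salt (highest adjusted p = 0.0729). Other members that fell more in Roma included a cell wall peroxidase, SORBI_3003G140700, which fell in both lines (responses -0.78 in M-81E and -1.80 in Roma) and differed by -1.02 (SE 0.19, adjusted p = 0.0344), a call that was kept only without any 1 library of Roma-salt (highest adjusted p = 0.075). SORBI_3002G421600, a disulfide oxidoreductase of protein folding by its terms, also fell in both lines, by 1.29 and 3.37 on the log2 scale, and its difference of -2.08 (SE 0.38, adjusted p = 0.0311) was kept only without library 3 of M-81E-CK, 3 of M-81E-salt, 1 of Roma-CK or 1 or 3 of Roma-salt (highest adjusted p = 0.0766). SORBI_3005G063400, a fatty acyl-CoA reductase of suberin synthesis, was at 10.8, 11.97 and 10.7 FPKM in M-81E-CK, 9.58, 10.9 and 10.7 FPKM in M-81E-salt, 12.7, 12.6 and 13.1 FPKM in Roma-CK and 5.74, 5.86 and 5.08 FPKM in Roma-salt, with a narrow spread in every group. Roma-CK lay above all M-81E libraries and Roma-salt below them, and the difference of -0.98 (SE 0.11, adjusted p = 0.00502) was called without each of the 12 libraries in turn. The trehalose phosphate synthase SORBI_3007G126100 differed by -1.16 (SE 0.19, adjusted p = 0.0201), and the call was lost without library 1 of M-81E-CK or 1 of M-81E-salt (highest adjusted p = 0.054).

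A pair of members in this class went to a listed value of 0 in Roma-salt. SORBI_3002G246200, annotated with mitochondrial complex I, was at 23.9, 23.7 and 23.3 FPKM in Roma-CK, and its value was 0 in each of the other 9 libraries. SORBI_3003G427400, a GTPase of the signal recognition particle, was at 13.4, 12.6 and 18.0 FPKM in Roma-CK, listed at 0 in all Roma-salt libraries, and at 0.582 to 1.53 FPKM in M-81E. The first passed the limit of 1 FPKM through Roma-CK alone, the second mainly through it, and their calls rest on libraries listed at 0, which may be estimates that failed.

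**Figure D3:**
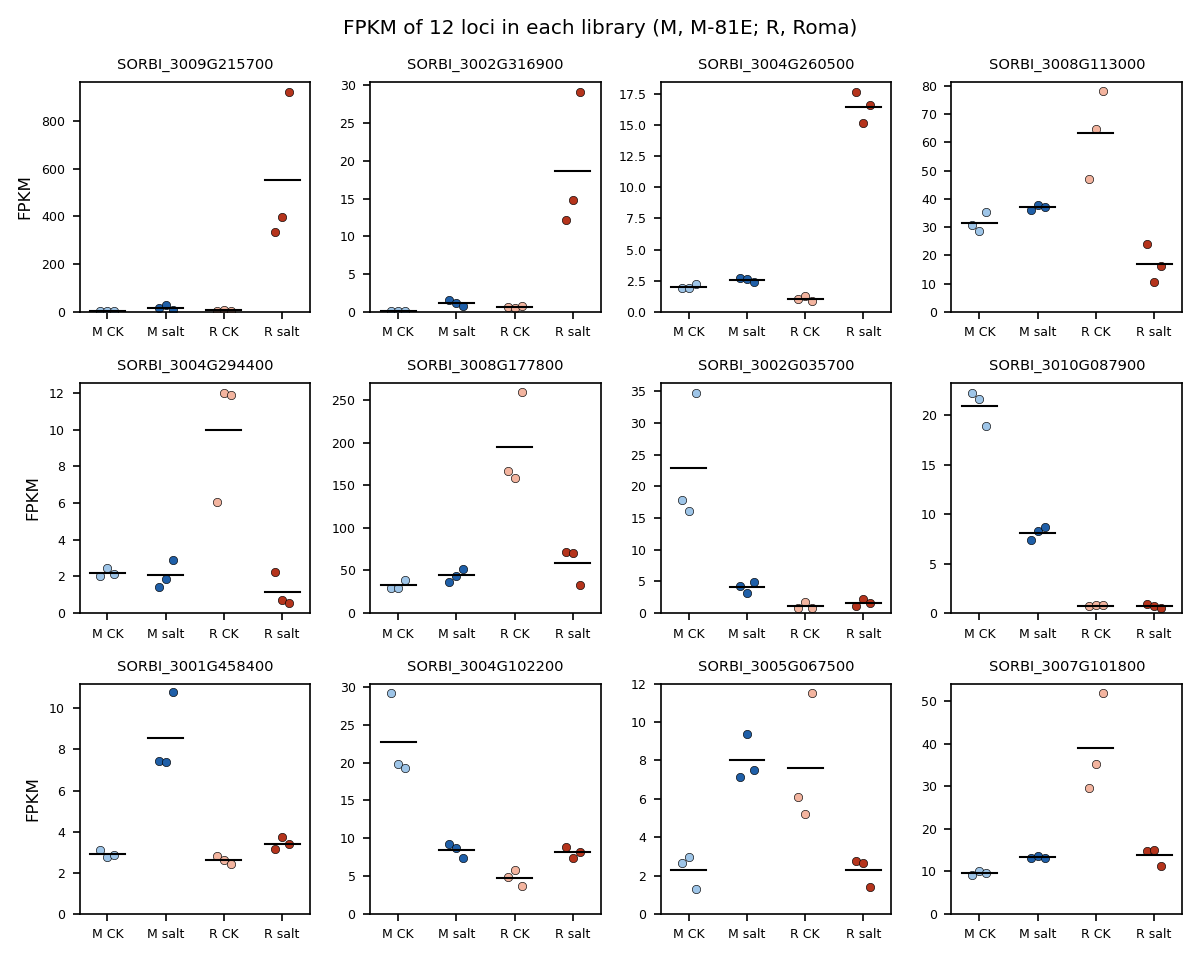
FPKM of 12 called loci in each of the 12 libraries, by group on the x axis (M, M-81E; R, Roma); points are libraries, horizontal bars are group means, and each y axis starts at 0. The panels show a rise in Roma-salt (SORBI_3009G215700, SORBI_3002G316900, SORBI_3004G260500), a fall from a high Roma-CK level (SORBI_3008G113000, SORBI_3004G294400, SORBI_3008G177800), responses in M-81E (SORBI_3002G035700, SORBI_3010G087900, SORBI_3001G458400) and opposite responses (SORBI_3004G102200, SORBI_3005G067500, SORBI_3007G101800).

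A response stronger in M-81E was found at 37 members, and 13 of these rose there. The widest difference among the 13 was -3.315, at a member that is not named here. The beta-glucosidase SORBI_3001G458400, which by its terms splits glucose from glycosides, was at 3.12, 2.76 and 2.85 FPKM in M-81E-CK, 7.44, 7.38 and 10.8 FPKM in M-81E-salt, 2.84, 2.63 and 2.41 FPKM in Roma-CK and 3.16, 3.72 and 3.38 FPKM in Roma-salt. The M-81E-salt libraries exceeded all others, and the Roma response was 0.29 (adjusted p = 0.265). Its difference of -0.98 (SE 0.19, adjusted p = 0.0357) was kept only without library 2 or 3 of M-81E-salt or 3 of Roma-CK (highest adjusted p = 0.0821). SORBI_3003G087200, an extracellular nuclease by its terms, had 4.11 ± 0.560 FPKM in M-81E-CK, 7.26 ± 0.645 in M-81E-salt, 8.86 ± 0.475 in Roma-CK and 7.33 ± 1.03 in Roma-salt (mean ± SD, n = 3), so that M-81E-salt approached the Roma levels, and its difference of -0.94 (SE 0.17, adjusted p = 0.0265) was lost without library 1 or 3 of M-81E-CK or 1 or 2 of M-81E-salt (highest adjusted p = 0.0674). The calmodulin-binding stress-response locus SORBI_3004G181700 had 12.7 ± 1.73 FPKM in M-81E-CK, 22.8 ± 0.986 in M-81E-salt, 22.2 ± 2.25 in Roma-CK and 17.7 ± 3.76 in Roma-salt (mean ± SD, n = 3), a difference of -1.12 (SE 0.21, adjusted p = 0.035) that was kept only without library 3 of M-81E-CK or 2 or 3 of Roma-salt (highest adjusted p = 0.0784). SORBI_3004G245900, which carries no GO term, rose from 4.01 ± 0.402 to 9.90 ± 0.822 FPKM in M-81E and was at or below 0.249 FPKM in every Roma library, 3 of them listed at 0. That difference of -1.02 (SE 0.17, adjusted p = 0.021) was lost without library 1 or 2 of M-81E-CK or 1 or 2 of M-81E-salt (highest adjusted p = 0.0551), and with a pseudocount of 0.1 its adjusted p was 0.663. The protein kinase SORBI_3003G230000 and the chlorophyll breakdown oxygenase SORBI_3001G504900 differed by -1.21 (SE 0.25, adjusted p = 0.0438) and -1.45 (SE 0.30, adjusted p = 0.0463). The first of these calls was kept only without library 2 or 3 of Roma-CK (highest adjusted p = 0.0971), and the second was kept only without Roma-CK1 (highest adjusted p = 0.101).

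The 24 members that fell in M-81E included a glutathione transferase, an aquaporin, a soluble acid invertase and ribosomal proteins. SORBI_3002G035700, a glutathione transferase of the kind that conjugates toxic compounds, was at 17.9, 16.1 and 34.7 FPKM in M-81E-CK, 4.21, 3.07 and 4.84 FPKM in M-81E-salt, 0.835, 1.73 and 0.731 FPKM in Roma-CK and 1.06, 2.18 and 1.57 FPKM in Roma-salt. It fell from the highest group to a level still above all Roma libraries, and M-81E-CK3 was the highest library. The difference of 2.50 (SE 0.43, adjusted p = 0.0241) was lost without library 1 or 2 of M-81E-salt (highest adjusted p = 0.056). SORBI_3010G087900, a plasma membrane aquaporin by its terms, was at 22.2, 21.6 and 18.9 FPKM in M-81E-CK, 7.41, 8.27 and 8.65 FPKM in M-81E-salt, 0.653, 0.756 and 0.819 FPKM in Roma-CK and 0.881, 0.728 and 0.541 FPKM in Roma-salt. All Roma libraries were below 1 FPKM with CK and salt overlapping, and M-81E fell by 1.27 on the log2 scale, so the 2 lines differed by 1.24 (SE 0.15, adjusted p = 0.00583), which was called without each of the 12 libraries in turn. At such Roma levels the log2(FPKM + 1) scale leaves little room for a fall. SORBI_3004G004800, described as a soluble acid invertase, an enzyme that splits sucrose, was at 82.7, 80.0 and 88.2 FPKM in M-81E-CK, 18.0, 15.6 and 17.5 FPKM in M-81E-salt, 27.4, 44.2 and 22.8 FPKM in Roma-CK and 24.3, 21.3 and 14.3 FPKM in Roma-salt. M-81E-CK was the highest group and the other 3 groups lay within one range, from 14.3 to 44.2 FPKM, and the difference of 1.62 (SE 0.34, adjusted p = 0.0471) was kept only without library 2 of Roma-CK or 3 of Roma-salt (highest adjusted p = 0.0985). The receptor-type kinase SORBI_3005G154100 was at 8.21, 9.81 and 6.96 FPKM in M-81E-CK, 0.738, 0.660 and 0.658 FPKM in M-81E-salt, 6.81, 5.10 and 6.64 FPKM in Roma-CK and 2.70, 4.92 and 4.09 FPKM in Roma-salt, with M-81E-salt below 1 FPKM and no other group below 2. The response was -2.46 in M-81E and -0.57 in Roma (adjusted p = 0.102), and the difference of 1.89 (SE 0.26, adjusted p = 0.00953) was called without each of the 12 libraries in turn. SORBI_3007G055600, a sesquiterpene synthase making volatile terpenes by its terms, had 3.45 ± 0.864 FPKM in M-81E-CK, 0.444 ± 0.0843 in M-81E-salt, 0.154 ± 0.0848 in Roma-CK and 0.237 ± 0.0487 in Roma-salt (mean ± SD, n = 3). The difference was 1.71 (SE 0.19, adjusted p = 0.00477). It reached a mean of 1 FPKM in M-81E-CK only, so its call is given as a description. Its neighbour by name, SORBI_3007G055500, is also annotated as a sesquiterpene synthase and instead rose in Roma, from 1.05 ± 0.531 to 5.21 ± 0.962 FPKM, with a difference of 1.60 (SE 0.31, adjusted p = 0.036) that was kept only without library 1 or 3 of Roma-CK or 3 of Roma-salt (highest adjusted p = 0.0838). SORBI_3001G197400, a cytoskeleton constituent annotated with root hair elongation like SORBI_3009G153000, had 37.9 ± 3.40 FPKM in M-81E-CK, 16.6 ± 0.586 in M-81E-salt, 23.5 ± 4.76 in Roma-CK and 26.1 ± 4.05 in Roma-salt (mean ± SD, n = 3), and its difference of 1.29 (SE 0.22, adjusted p = 0.024) was lost without library 1 or 3 of M-81E-CK or 1 or 2 of M-81E-salt (highest adjusted p = 0.0624). SORBI_3006G194200 was at 20.6, 19.4 and 23.2 FPKM in M-81E-CK and listed at 0 in all M-81E-salt libraries, with Roma at or below 0.888 FPKM (adjusted p = 0.000229). It passed the limit of 1 FPKM through M-81E-CK only, and its call is likewise a description. The iron-sulfur protein SORBI_3002G263100 was at 4.11, 4.04 and 2.24 FPKM in M-81E-CK, listed at 0 in all M-81E-salt libraries and at 2.32 to 4.85 FPKM in Roma, and its call was kept only without library 3 of M-81E-CK, any 1 of Roma-CK or 1 of Roma-salt (highest adjusted p = 0.0708).

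At the 144 members with opposite directions, both responses passed an adjusted p under 0.05 at 18, 1 of the responses did at 98 and neither did at 28. At 131 of the 144 (91.0%) the CK and salt libraries overlapped in neither line, a pattern that 1.76% of all loci and 446 members (2.92%) showed. Since the class was drawn from the same values, this count describes its members.

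In the class down in M-81E and up in Roma, the transcription factor SORBI_3003G150400, annotated with the regulation of the hypoxia response, was at 8.07, 5.56 and 5.52 FPKM in M-81E-CK, 0.640, 0.821 and 0 FPKM in M-81E-salt, 6.74, 7.54 and 2.82 FPKM in Roma-CK and 33.4, 46.2 and 9.71 FPKM in Roma-salt. M-81E-salt was the lowest group and Roma-salt the highest, and the 2 CK groups overlapped. The M-81E response was -2.34 (adjusted p = 0.0539), the Roma response was 2.04 (adjusted p = 0.0476), and the difference of 4.38 (SE 0.74, adjusted p = 0.024) was lost without library 1 or 2 of M-81E-CK or 1 of M-81E-salt (highest adjusted p = 0.0622). The aquaporin SORBI_3004G102200, like SORBI_3010G087900 of the plasma membrane by its terms, was at 29.2, 19.9 and 19.3 FPKM in M-81E-CK, 9.27, 8.75 and 7.42 FPKM in M-81E-salt, 4.82, 5.74 and 3.66 FPKM in Roma-CK and 8.86, 7.34 and 8.18 FPKM in Roma-salt. Under salt the 2 lines overlapped, and under control M-81E was several times higher. It fell by 1.31 in M-81E, its response was 0.68 in Roma (adjusted p = 0.0509), and the difference of 1.99 (SE 0.25, adjusted p = 0.00772) was called without each of the 12 libraries in turn. In the aquaporin list as a whole, 3 of 24 members were called (12.5%, beside 2.37% of all members), 2 higher and 1 lower in Roma. In Roma 7 fell and 1 rose and in M-81E 2 fell, where 10.5% and 3.59% of all members were called. The third called aquaporin, SORBI_3001G195800, was in the class up in M-81E and down in Roma at low levels, 0.849 ± 0.176 FPKM in M-81E-CK, 1.33 ± 0.202 in M-81E-salt, 2.06 ± 0.375 in Roma-CK and 0.846 ± 0.245 in Roma-salt (mean ± SD, n = 3), and its difference of -1.07 (SE 0.20, adjusted p = 0.0336) was kept only without library 1 or 3 of Roma-CK or 2 of Roma-salt (highest adjusted p = 0.0796).

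Of 80 glutathione transferases 4 were called (5.0%, beside 2.37% of all members), each with a higher response in Roma. Over the list 4 fell and 1 rose in M-81E, where 3.59% of all members were called, and 8 rose and 1 fell in Roma, where 10.5% were. SORBI_3001G412800 was at 23.3, 22.6 and 17.1 FPKM in M-81E-CK, 7.74, 9.64 and 11.1 FPKM in M-81E-salt, 11.7, 9.28 and 12.6 FPKM in Roma-CK and 17.8, 17.6 and 20.5 FPKM in Roma-salt, a fall in M-81E and a rise in Roma with no overlap in either line and a difference of 1.76 (SE 0.23, adjusted p = 0.00806). SORBI_3009G043700 was at 45.5, 50.9 and 38.1 FPKM in M-81E-CK, 21.9, 30.8 and 23.4 FPKM in M-81E-salt, 10.4, 10.9 and 17.0 FPKM in Roma-CK and 25.4, 25.6 and 25.4 FPKM in Roma-salt, and here M-81E-CK was the highest group and Roma-CK the lowest, with a difference of 1.78 (SE 0.27, adjusted p = 0.0141). Both calls held without each of the 12 libraries. SORBI_3007G181500, a transcription factor of abscisic acid signalling by its terms, had 9.44 ± 1.08 FPKM in M-81E-CK, 3.64 ± 0.367 in M-81E-salt, 2.23 ± 0.185 in Roma-CK and 3.94 ± 1.26 in Roma-salt (mean ± SD, n = 3). It fell in M-81E by 1.17, its Roma response was 0.59 (adjusted p = 0.0659), and the difference of 1.75 (SE 0.23, adjusted p = 0.00877) was called without each of the 12 libraries in turn. SORBI_3001G424400, a protein phosphatase annotated with damping of abscisic acid signalling, had 16.8 ± 0.969 FPKM in M-81E-CK, 12.7 ± 1.26 in M-81E-salt, 5.54 ± 0.388 in Roma-CK and 12.8 ± 1.84 in Roma-salt (mean ± SD, n = 3) and differed by 1.45 (SE 0.16, adjusted p = 0.00446), which was called without each of the 12 libraries in turn. SORBI_3010G182966, a monooxygenase of brassinosteroid metabolism, was at 44.5, 40.2 and 38.7 FPKM in M-81E-CK, 22.6, 24.0 and 24.9 FPKM in M-81E-salt, 21.1, 16.7 and 15.6 FPKM in Roma-CK and 33.2, 33.0 and 46.6 FPKM in Roma-salt. It fell in M-81E and rose in Roma (responses -0.76 and 1.03), and the difference of 1.79 (SE 0.21, adjusted p = 0.00565) was called without each of the 12 libraries in turn. SORBI_3008G036000, a monooxygenase annotated with the wound response, was at 296, 313 and 284 FPKM in M-81E-CK, 177, 182 and 152 FPKM in M-81E-salt, 374, 420.3 and 322 FPKM in Roma-CK and 562, 525 and 576 FPKM in Roma-salt. None of the 4 groups overlapped with another, both responses passed (-0.80 and 0.58), and the difference of 1.39 (SE 0.20, adjusted p = 0.0108) was called without each of the 12 libraries in turn. SORBI_3001G472800, described as myo-inositol-1-phosphate synthase, the first enzyme of inositol synthesis, had 37.5 ± 2.04 FPKM in M-81E-CK, 25.8 ± 5.53 in M-81E-salt, 18.3 ± 2.54 in Roma-CK and 32.8 ± 2.73 in Roma-salt (mean ± SD, n = 3). It differed by 1.35 (SE 0.22, adjusted p = 0.0187) and was called without each of the 12 libraries in turn. The lipase SORBI_3007G036900 had 78.8 ± 7.51 FPKM in M-81E-CK, 63.9 ± 4.10 in M-81E-salt, 14.9 ± 1.25 in Roma-CK and 29.3 ± 3.35 in Roma-salt (mean ± SD, n = 3) and differed by 1.22 (SE 0.16, adjusted p = 0.00772), which was called without each of the 12 libraries in turn.

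In the class up in M-81E and down in Roma, SORBI_3010G066300 had the widest difference among the members with steady levels, and its terms give only a membrane and an extracellular location. It was at 0.687, 1.02 and 0.977 FPKM in M-81E-CK, 12.8, 23.4 and 9.97 FPKM in M-81E-salt, 8.23, 4.85 and 2.27 FPKM in Roma-CK and 0.888, 0.816 and 0.322 FPKM in Roma-salt. M-81E-salt was the highest group, Roma-CK was next, and M-81E-CK and Roma-salt lay at about the same low level. Both responses passed (3.03 and -1.76), and the difference of -4.79 (SE 0.54, adjusted p = 0.00502) was called without each of the 12 libraries in turn. Ethylene is made from methionine through 1-aminocyclopropane-1-carboxylate (ACC), by ACC synthase and then a dioxygenase, ACC oxidase. All 3 called members of ethylene synthesis, a group chosen after the values were seen, were lower in Roma. Over the 15 members of the group the fitted response was higher in Roma at 10, with a median difference of 0.03. SORBI_3005G067500, a dioxygenase of ethylene synthesis, was at 2.67, 2.95 and 1.27 FPKM in M-81E-CK, 7.14, 9.39 and 7.48 FPKM in M-81E-salt, 6.10, 5.19 and 11.5 FPKM in Roma-CK and 2.75, 2.67 and 1.42 FPKM in Roma-salt. M-81E-CK and Roma-salt formed the low groups and M-81E-salt and Roma-CK the high ones, both responses passed (1.48 and -1.35), and the difference of -2.83 (SE 0.43, adjusted p = 0.0153) was called without each of the 12 libraries in turn. SORBI_3005G067300, with the same terms and a nearby gene number, was at 1.11, 1.66 and 0.819 FPKM in M-81E-CK, 5.13, 4.04 and 3.25 FPKM in M-81E-salt, 12.2, 11.9 and 33.1 FPKM in Roma-CK and 4.13, 5.99 and 3.72 FPKM in Roma-salt. Its Roma-CK3 library stood well above the other two of its group, and the difference of -2.93 (SE 0.50, adjusted p = 0.0241) was lost without library 1 or 3 of M-81E-CK, 1 or 2 of M-81E-salt or 3 of Roma-salt (highest adjusted p = 0.061). The ACC synthase SORBI_3003G033900 was at 28.6, 21.1 and 28.9 FPKM in M-81E-CK, 57.0, 65.0 and 56.3 FPKM in M-81E-salt, 135, 152 and 279 FPKM in Roma-CK and 125, 120.5 and 83.2 FPKM in Roma-salt. Roma exceeded M-81E under both treatments, neither response passed alone (adjusted p = 0.0598 for M-81E, 0.156 for Roma), and the difference of -1.89 (SE 0.38, adjusted p = 0.0415) was kept only without library 1 or 3 of Roma-CK (highest adjusted p = 0.0903). The other 12 of the 15 members of this group were not called, and over the group 1 rose and 1 fell in M-81E while 0 rose and 2 fell in Roma. Of all members, 3.59% were called in M-81E and 10.5% in Roma. SORBI_3001G481400, an ethylene-signalling transcription factor annotated with the detection of hypoxia, had 101 ± 2.57 FPKM in M-81E-CK, 162 ± 26.7 in M-81E-salt, 208 ± 56.9 in Roma-CK and 92.7 ± 19.98 in Roma-salt (mean ± SD, n = 3), and its difference of -1.81 (SE 0.32, adjusted p = 0.0276) was lost without any 1 library of M-81E-CK, 1 or 2 of M-81E-salt or 2 of Roma-CK (highest adjusted p = 0.0688).

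Phosphofructokinases commit sugar phosphate to glycolysis, and the form annotated here uses pyrophosphate in place of ATP. SORBI_3007G101800, of this kind, was at 9.17, 10.2 and 9.63 FPKM in M-81E-CK, 13.1, 13.6 and 13.2 FPKM in M-81E-salt, 29.5, 35.3 and 52.0 FPKM in Roma-CK and 14.8, 15.1 and 11.4 FPKM in Roma-salt. Roma-CK was the highest group and M-81E-CK the lowest, and under salt the lines overlapped. Its response was 0.42 in M-81E (adjusted p = 0.305) and -1.41 in Roma, and the difference of -1.83 (SE 0.26, adjusted p = 0.0104) was called without each of the 12 libraries in turn. SORBI_3002G026300, with the same terms, was at 26.8, 29.9 and 30.1 FPKM in M-81E-CK, 44.3, 45.3 and 40.1 FPKM in M-81E-salt, 60.1, 69.2 and 85.4 FPKM in Roma-CK and 36.3, 41.7 and 35.6 FPKM in Roma-salt, again with Roma-CK highest and M-81E-CK lowest, and differed by -1.45 (SE 0.18, adjusted p = 0.007), which was called without each of the 12 libraries in turn. These 2 loci entered the photosynthesis list through a GO term, and they were its only called members. The cell wall peroxidase SORBI_3003G152200 was at 10.9, 10.8 and 6.95 FPKM in M-81E-CK, 18.8, 20.3 and 24.1 FPKM in M-81E-salt, 20.1, 20.6 and 26.7 FPKM in Roma-CK and 11.1, 12.2 and 7.50 FPKM in Roma-salt. M-81E rose to the Roma-CK level while Roma fell to the M-81E-CK level, and the difference of -2.16 (SE 0.30, adjusted p = 0.01) was called without each of the 12 libraries in turn. SORBI_3004G333900, a proton-pumping pyrophosphatase of the vacuole and other membranes by its terms, was at 0.549, 0.853 and 0.767 FPKM in M-81E-CK, 3.20, 2.42 and 2.02 FPKM in M-81E-salt, 1.45, 1.46 and 5.29 FPKM in Roma-CK and 0.262, 0.266 and 0.108 FPKM in Roma-salt. The levels were low and Roma-CK3 was far above the other two of its group, and the difference of -2.51 (SE 0.46, adjusted p = 0.0304) was kept only without library 3 of M-81E-salt or any 1 of Roma-CK (highest adjusted p = 0.0755). The 4-coumarate-CoA ligase SORBI_3007G089900, of phenylpropanoid synthesis, had 2.88 ± 0.276 FPKM in M-81E-CK, 4.75 ± 0.231 in M-81E-salt, 7.32 ± 0.677 in Roma-CK and 3.78 ± 1.36 in Roma-salt (mean ± SD, n = 3) and differed by -1.40 (SE 0.25, adjusted p = 0.0267), a call that was lost without library 1 or 2 of M-81E-CK, any 1 of M-81E-salt or 1 of Roma-salt (highest adjusted p = 0.0668).

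The functional lists were taken from GO terms and descriptions of the table, and each is described by counts and medians beside those of all members, with no test of the list. In the list of cytosolic ribosomal proteins, which build the protein-making machinery, 9 of 252 members (3.57%, beside 2.37% of all members) were called, 9 higher and 0 lower in Roma. In M-81E 25 members of the list fell and 1 rose, where 3.59% of all members were called. There 199 had a fitted response below 0, with a median of -0.38. In Roma 6 rose and 4 fell, where 10.5% of all members were called, and the median was -0.05. The median difference was 0.33 beside -0.02 over all members. The median level by library was 5.02 to 5.40 in M-81E-CK, 4.60 to 4.82 in M-81E-salt, 5.14 to 5.50 in Roma-CK and 5.16 to 5.34 in Roma-salt on the log2(FPKM + 1) scale, so the M-81E-salt libraries lay below all others. SORBI_3001G383000, of the large subunit, was at 13.7, 15.5 and 10.3 FPKM in M-81E-CK, 7.15, 7.35 and 9.03 FPKM in M-81E-salt, 1.79, 2.39 and 1.85 FPKM in Roma-CK and 14.4, 25.1 and 40.2 FPKM in Roma-salt, with Roma-CK lowest and Roma-salt above M-81E-salt and Roma-CK, and differed by 3.76 (SE 0.43, adjusted p = 0.00502), which was called without each of the 12 libraries in turn. SORBI_3005G019700, of the small subunit, had 65.8 ± 8.97 FPKM in M-81E-CK, 27.6 ± 6.39 in M-81E-salt, 90.4 ± 8.04 in Roma-CK and 93.4 ± 6.09 in Roma-salt (mean ± SD, n = 3), a fall in M-81E alone, and its difference of 1.29 (SE 0.24, adjusted p = 0.0306) was kept only without library 1 or 3 of M-81E-salt, 2 of Roma-CK or 2 of Roma-salt (highest adjusted p = 0.0624). SORBI_3004G104100, of the large subunit, had 41.9 ± 8.69 FPKM in M-81E-CK, 15.3 ± 4.14 in M-81E-salt, 50.1 ± 3.90 in Roma-CK and 47.4 ± 2.003 in Roma-salt (mean ± SD, n = 3), and its difference of 1.33 (SE 0.26, adjusted p = 0.036) was kept only without M-81E-salt1 (highest adjusted p = 0.0801). SORBI_3002G430800, of the small subunit, was named after its values were seen and had 10.9 ± 0.716 FPKM in M-81E-CK, 7.48 ± 1.19 in M-81E-salt, 10.9 ± 0.969 in Roma-CK and 16.0 ± 0.685 in Roma-salt (mean ± SD, n = 3), a difference of 1.01 (SE 0.15, adjusted p = 0.0153) that was called without each of the 12 libraries in turn. The other 5 called members of the list differed by 0.77 to 1.13.

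**Figure D4:**
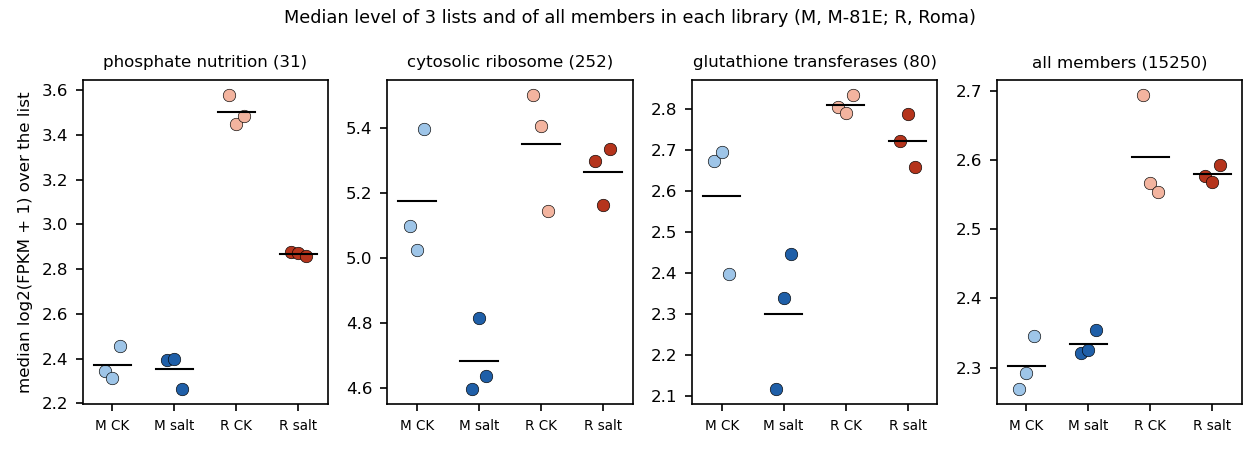
Median log2(FPKM + 1) of 3 lists and of all members in each library, by group on the x axis (M, M-81E; R, Roma); points are libraries, bars are group means, numbers of loci are in the titles, and the y axes do not start at 0. The phosphate nutrition list lies at 3.45 to 3.58 in Roma-CK and 2.86 to 2.88 in Roma-salt, and the cytosolic ribosome list at 4.60 to 4.82 in M-81E-salt.

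Among the stress and hormone lists, the called share was 1.02% (abscisic acid) to 5.0% (defense), beside 2.37% of all members. Of 246 members of the salt stress list 6 were called (4 higher and 2 lower in Roma), of 190 in osmotic and water stress 7 (5 and 2), and of 295 in the abscisic acid list 3, all higher in Roma. The called shares of these lists were 2.44%, 3.68% and 1.02%. With a pseudocount of 0.1 the calls were 2, 4 and 1 in the same order, beside 297 over all members. In the fit to members only they were 15, 15 and 12, beside 530. The abscisic acid list takes the terms for the response to abscisic acid, its signalling pathway, its synthesis and its breakdown, and another 4 called members carry other terms that name the hormone, SORBI_3001G424400 with a higher response in Roma and SORBI_3001G234300, SORBI_3004G345800 and SORBI_3010G231500 with a lower one. Ethylene signalling had 3 of 141 called, all lower in Roma, auxin 4 of 165, all higher, jasmonate and wounding 8 of 210 (3.81%, 5 higher and 3 lower), and gibberellin and cytokinin 2 of 143, 1 each way. Among 650 transcription factors 23 were called (3.54%, 13 higher and 10 lower). In Roma 55 of them rose and 27 fell and in M-81E 18 rose and 4 fell, where 10.5% and 3.59% of all members were called. The defense list had 26 of 520 called (5.0%, 16 higher and 10 lower). A single member was described as a late embryogenesis abundant protein or dehydrin, the LEA3 locus.

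Over all members, the called share was 2.37%. Amino acid transport and polyamine synthesis had 6 of 73 called (8.22%), 5 higher and 1 lower in Roma, and all 6 are annotated as amino acid transporters. The exception in direction, SORBI_3007G025500, had 149.6 ± 7.21 FPKM in M-81E-CK, 205 ± 5.48 in M-81E-salt, 175 ± 50.5 in Roma-CK and 88.4 ± 17.3 in Roma-salt (mean ± SD, n = 3), and its difference of -1.42 (SE 0.28, adjusted p = 0.0381) was kept only without library 1 or 3 of Roma-CK or 2 of Roma-salt (highest adjusted p = 0.0869). Sodium, potassium and proton transport had 4 of 65 called (6.15%), 2 each way, among them the proton pump and the pyrophosphatase. In nitrate and peptide transport 3 of 73 were called, SORBI_3004G260500 and a pair of nitrate-related DNA-binding proteins, SORBI_3004G297200 with a difference of 0.75 (SE 0.15, adjusted p = 0.0398) and SORBI_3003G003600 with one of -0.77 (SE 0.15, adjusted p = 0.0344). Of these calls the first was kept only without library 3 of M-81E-CK or 1 of Roma-CK (highest adjusted p = 0.0873), and the second was kept only without library 1 of Roma-CK or 2 of Roma-salt (highest adjusted p = 0.0812). Iron and zinc nutrition had 1 of 59 called and sugar transport and metabolism 2 of 97, 1 each way.

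Among the lists of wall and growth functions, the called share was 0.0% (DNA replication and nucleosome) to 3.5% (lignin), beside 2.37% of all members. Heme peroxidases had 3 of 128 called (2.34%), all lower in Roma. In Roma 21 fell and 7 rose and in M-81E 7 fell and 1 rose, where 10.5% and 3.59% of all members were called. Cell wall had 7 of 289 called (2 higher and 5 lower), lignin, phenylpropanoid and suberin 7 of 200 (3 and 4), lipid 6 of 200 (2 and 4), cell division 3 of 190 (2 and 1) and heat and protein folding 6 of 254 (5 and 1). No member of the list of DNA replication and nucleosome was called among 83 by limma, with 11 at an unadjusted p under 0.05, 0 by the linear model without moderation and 1 in the fit to members only. None of the 5 members of the diterpenoid and phytoalexin list was called by limma, with 3 at an unadjusted p under 0.05 and 0 by the linear model without moderation. Of the groups chosen after the values were seen, hypoxia had 4 of 43 members called (9.30%, 1 higher and 3 lower in Roma) and brassinosteroid 3 of 54 (5.56%, 2 higher and 1 lower). In Roma 11 hypoxia members were called down and 5 up, while 783 and 825 of all 15250 members were. The hypoxia group takes the terms for the response to and detection of hypoxia and so leaves out SORBI_3003G150400, whose term is the regulation of that response and whose difference was higher in Roma. The member of the hypoxia group that was higher, the transcription factor SORBI_3002G080100, had 228 ± 10.5 FPKM in M-81E-CK, 209 ± 22.2 in M-81E-salt, 209 ± 24.0 in Roma-CK and 384 ± 49.4 in Roma-salt (mean ± SD, n = 3), and its difference of 1.003 (SE 0.20, adjusted p = 0.0419) was kept only without Roma-CK1 (highest adjusted p = 0.0883).

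**Figure D5:**
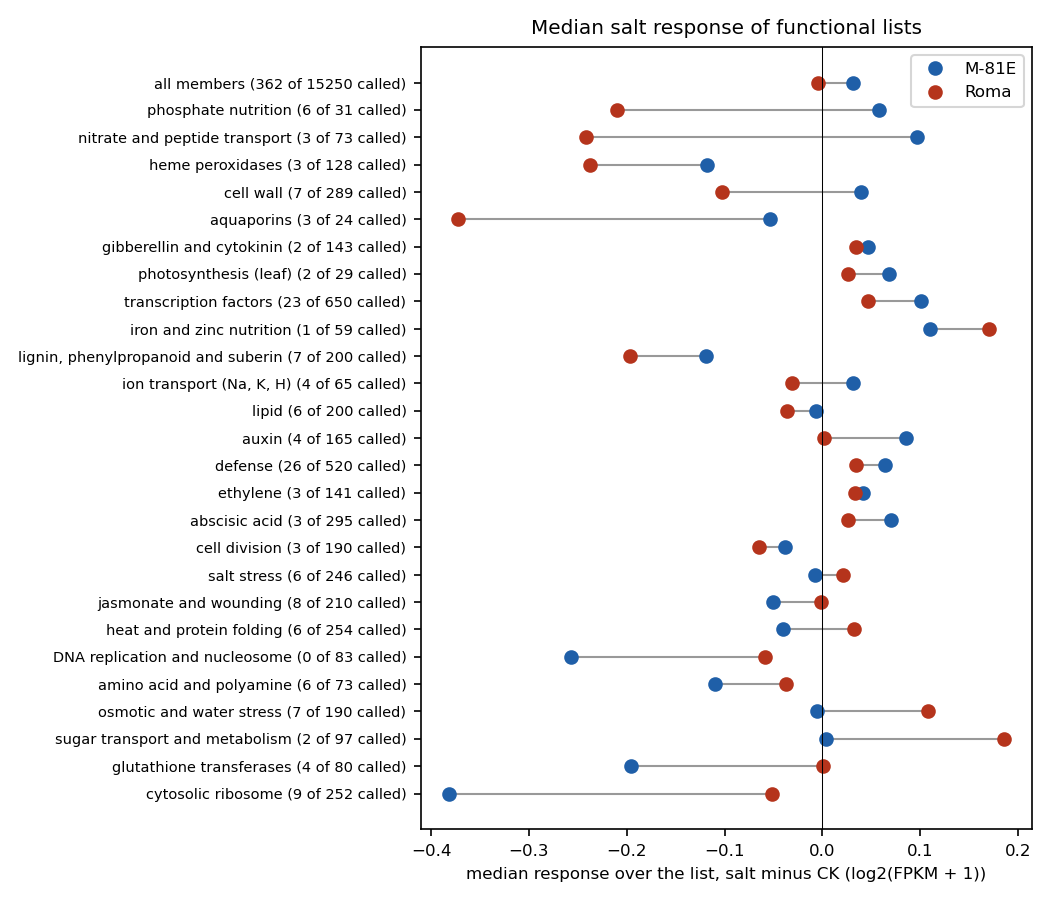
Median salt response over the members of each functional list with at least 20 members and over all members, in M-81E (blue) and Roma (red), salt minus CK on the log2(FPKM + 1) scale; lists are ordered by their median difference and the number called is given beside each name. The cytosolic ribosome list has the lowest median in M-81E (-0.38), and aquaporins have the lowest in Roma (-0.37).

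Wide differences were also found at members outside the groups above or with little annotation. SORBI_3001G109000, which carries only a plastid location, rose in Roma and was at 0.0302, 0.0304 and 0 FPKM in M-81E-CK, 0.704, 0.566 and 0.230 FPKM in M-81E-salt, 0.332, 0.686 and 0.177 FPKM in Roma-CK and 12.2, 7.53 and 22.8 FPKM in Roma-salt, with a difference of 2.79 (SE 0.45, adjusted p = 0.0194) that was lost without library 1 or 2 of M-81E-CK (highest adjusted p = 0.0506). SORBI_3007G109800, annotated with the responses to abscisic acid, water deprivation and osmotic stress, was at 0.706, 0.483 and 0.551 FPKM in M-81E-CK, 0.399, 0.787 and 0.582 FPKM in M-81E-salt, 0.851, 0.257 and 1.07 FPKM in Roma-CK and 4.67, 5.11 and 12.1 FPKM in Roma-salt. Its difference of 2.18 (SE 0.43, adjusted p = 0.0397) was kept only without library 3 of Roma-CK or any 1 of Roma-salt (highest adjusted p = 0.0919). Like SORBI_3001G109000, it reached a mean of 1 FPKM in Roma-salt only, so both calls are given as descriptions. In the class down in M-81E and up in Roma, SORBI_3007G146700 with a mitochondrial location was at 2.26, 1.63 and 2.15 FPKM in M-81E-CK, 0.692, 1.04 and 0.652 FPKM in M-81E-salt, 0.739, 0.547 and 1.07 FPKM in Roma-CK and 5.56, 5.02 and 10.7 FPKM in Roma-salt. The difference of 2.87 (SE 0.34, adjusted p = 0.00583) was called without each of the 12 libraries in turn. SORBI_3001G417800, a GTPase activator of vesicle transport by its terms, was at 8.75, 11.6 and 22.8 FPKM in M-81E-CK, 6.05, 6.67 and 6.95 FPKM in M-81E-salt, 7.17, 5.52 and 6.49 FPKM in Roma-CK and 23.6, 34.7 and 23.4 FPKM in Roma-salt, with a difference of 2.84 (SE 0.41, adjusted p = 0.0115) that was called without each of the 12 libraries in turn. In the class up in M-81E and down in Roma, SORBI_3010G275100, with no function given, was at 12.3, 9.91 and 7.90 FPKM in M-81E-CK, 37.9, 21.5 and 35.5 FPKM in M-81E-salt, 9.44, 14.2 and 27.1 FPKM in Roma-CK and 4.49, 4.43 and 1.62 FPKM in Roma-salt, and its difference of -3.49 (SE 0.57, adjusted p = 0.0213) was lost without library 2 of M-81E-CK or 1 of M-81E-salt (highest adjusted p = 0.0532).

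Levels were not steady at 7 of the 362 called members, where 1 library of a group was listed at 0 beside another at 1 FPKM or more, or where libraries of a group differed more than 5-fold in FPKM + 1. The 4 with the widest differences are given by library, with no mean, and their fitted differences depend on the pseudocount. SORBI_3009G165500 was at 0 in all 3 libraries of M-81E-CK, 11.3, 7.63 and 8.16 FPKM in M-81E-salt, 13.0, 11.8 and 12.3 FPKM in Roma-CK and 0, 0 and 11.0 FPKM in Roma-salt, and its difference of -5.85 rests on a Roma-salt group with 2 libraries listed at 0 and 1 near the Roma-CK level, so that the call was kept only without Roma-salt3 (highest adjusted p = 0.0798). SORBI_3003G246200 was at 0 in all 3 libraries of M-81E-CK, 8.13, 11.1 and 9.05 FPKM in M-81E-salt, 7.30, 0 and 5.05 FPKM in Roma-CK and 0 in all 3 libraries of Roma-salt, with 1 Roma-CK library listed at 0 (difference -5.25), and the call was lost without library 1 or 2 of M-81E-CK or 1 or 2 of M-81E-salt (highest adjusted p = 0.0571). SORBI_3009G227900 was at 0 in all 3 libraries of M-81E-CK, 2.49, 1.86 and 2.26 FPKM in M-81E-salt, 5.89, 5.83 and 4.30 FPKM in Roma-CK and 0, 3.83 and 0 FPKM in Roma-salt, with 1 of 3 Roma-salt libraries above 0 (difference -3.57), and the call was kept only without Roma-salt2 (highest adjusted p = 0.0897). SORBI_3005G103900 was at 9.54, 11.1 and 7.28 FPKM in M-81E-CK, 1.26, 0 and 0 FPKM in M-81E-salt, 0, 0 and 0.544 FPKM in Roma-CK and 0.863, 6.21 and 3.52 FPKM in Roma-salt, with a difference of 4.72 that was called without each of the 12 libraries in turn.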

How the data were processed

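The authors sequenced root RNA of both lines, trimmed reads with cutadapt, and per the labels used Bowtie2, TopHat2 and StringTie (versions not given in the sources used here). They deposited a table of 34352 loci with FPKM values, gene names, descriptions and GO terms. The study's methods name 3 biological replicates a group. The labels name a small RNA kit, while the study's methods describe strand-specific libraries depleted of ribosomal RNA.

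log2(FPKM + 1) was fitted with limma 3.58.1 in R 4.3.3 (group means, eBayes with trend, 8 residual degrees of freedom), with p-values adjusted by Benjamini-Hochberg over all loci. The fit was tested on simulated data. Relative depth was read from 6904 loci of at most 0.3 FPKM. The 28 functional lists came from GO terms and descriptions. Named members were the 6 widest differences of each class and the 3 widest of each list. These came from called members with steady levels and 1 gene name. A further 4 were without steady levels. The members of the 7 added groups, and the ribosomal loci beyond 3, were named after their values were seen. Members and lists were chosen with earlier results of these data known. Alternatives covered the pseudocount, filters, scaling, prior variance, a replicate block and leaving out libraries. Promoters were not analysed here. Columns of other samples numbered 0, and the authors' own comparisons were not used.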

Additional observations from a re-analysis of the deposited data

Results flagged for a closer look

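The difference between the lines was called at each of the 112 members named in the text. Many of these calls were lost without 1 library, as given above. Calls at members that reached a mean of 1 FPKM in 1 group only are descriptions, as are those at SORBI_3002G316900 and SORBI_3005G210100. The values are log2 differences, the response of Roma minus that of M-81E, from limma on log2(FPKM + 1). Where a library of a group was listed at 0, the value depends on the pseudocount.

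Among members with a stronger rise in Roma, the protective and osmolyte-related members were LEA3 SORBI_3009G215700 (4.68), the water deprivation-annotated SORBI_3007G109800 (2.18) and the raffinose-family enzymes SORBI_3003G052300 (2.29) and SORBI_3005G210100 (1.83). Heat-annotated members were SORBI_3003G082000 (2.42) and SORBI_3010G233200 (1.52). Transporters were SORBI_3004G260500 for nitrate (2.86), SORBI_3003G375900 (2.40) and SORBI_3008G059200 (1.34) for amino acids, the proton pump SORBI_3001G132400 (1.91), SORBI_3006G212200 for zinc (0.97) and the lipid carrier SORBI_3006G074200 (2.84). Enzymes were the malic enzyme SORBI_3003G292400 (3.76), aconitase SORBI_3002G316900 (2.54), SORBI_3010G101300 of pyruvate oxidation (1.76), the sesquiterpene synthase SORBI_3007G055500 (1.60) and the flavonoid glycosyltransferase SORBI_3004G230800 (1.36). Regulators were SORBI_3006G142000 (2.53), SORBI_3010G273700 (1.69), SORBI_3002G080100 (1.003) and the auxin-annotated SORBI_3002G361500 (1.27). The others were the ribosomal SORBI_3001G383000 (3.76), the cytoskeletal SORBI_3009G153000 (1.11), SORBI_3002G061600 of the defense list (1.65) and SORBI_3001G109000 (2.79).

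Among members with a stronger fall in Roma, the phosphate-related ones were SORBI_3008G113000 (-2.10), SORBI_3001G442300 (-1.83), SORBI_3003G315166 (-1.56), SORBI_3003G314400 (-1.09) and SORBI_3007G211900 (-1.27). Those annotated with hypoxia or sugar breakdown were SORBI_3008G177800 (-2.20), SORBI_3001G260800 (-1.15), SORBI_3004G205100 (-1.005) and SORBI_3003G352300 (-0.91). Wall, folding and lipid members were SORBI_3004G294400 (-2.27), SORBI_3003G140700 (-1.02), SORBI_3002G421600 (-2.08), SORBI_3005G063400 (-0.98) and SORBI_3001G337400 (-1.37). The others were SORBI_3002G246200 (-4.62), SORBI_3003G427400 (-4.12), the ubiquitin ligase SORBI_3001G234300 (-2.32), SORBI_3002G024650 (-2.29), SORBI_3002G016300 of the gibberellin list (-1.75), the defense kinase SORBI_3002G329000 (-1.61) and SORBI_3007G126100 of trehalose synthesis (-1.16).

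The named members among the 13 with a stronger rise in M-81E were SORBI_3001G504900 (-1.45), SORBI_3003G230000 (-1.21), SORBI_3004G181700 (-1.12), SORBI_3004G245900 (-1.02), SORBI_3001G458400 (-0.98) and SORBI_3003G087200 (-0.94). Those with a stronger fall in M-81E were SORBI_3006G194200 (4.08), the glutathione transferase SORBI_3002G035700 (2.50), SORBI_3002G263100 (2.17), the kinase SORBI_3005G154100 (1.89), SORBI_3007G055600 (1.71), the invertase SORBI_3004G004800 (1.62), the phosphatase SORBI_3009G071000 (1.42), SORBI_3001G197400 (1.29), the aquaporin SORBI_3010G087900 (1.24) and the amylase SORBI_3002G225650 (0.74). Ribosomal members among them were SORBI_3004G104100 (1.33), SORBI_3005G019700 (1.29), SORBI_3004G198400 (0.81) and the locus of SORBI_3006G106000 and SORBI_3006G106100 (0.82).

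In the class down in M-81E and up in Roma, regulators and signalling members were SORBI_3003G150400 (4.38), SORBI_3001G417800 (2.84), SORBI_3007G181500 (1.75), SORBI_3001G424400 (1.45), SORBI_3003G341100 (1.20) and SORBI_3004G297200 (0.75). Enzymes and channels were the aquaporin SORBI_3004G102200 (1.99), SORBI_3009G043700 (1.78), SORBI_3001G412800 (1.76), SORBI_3010G182966 (1.79), SORBI_3003G048200 (1.30), SORBI_3008G036000 (1.39), SORBI_3005G037000 (1.38), SORBI_3001G472800 (1.35), SORBI_3007G036900 (1.22) and SORBI_3004G064400 (2.26). Ribosomal members were SORBI_3010G150575 (1.13), SORBI_3002G430800 (1.01), SORBI_3010G243200 (0.77) and the locus of SORBI_3001G050700 and SORBI_3001G050800 (0.93), which also carries galactosyltransferase terms. With little annotation were SORBI_3005G103900 (4.72), SORBI_3007G146700 (2.87), SORBI_3001G348700 (2.74) and SORBI_3002G250900 (2.40).

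In the class up in M-81E and down in Roma, members of ethylene synthesis and signalling were SORBI_3005G067300 (-2.93), SORBI_3005G067500 (-2.83), SORBI_3003G033900 (-1.89), SORBI_3001G481400 (-1.81) and SORBI_3009G034800 (-1.04). Enzymes and transporters were the phosphofructokinases SORBI_3007G101800 (-1.83) and SORBI_3002G026300 (-1.45), the peroxidases SORBI_3003G152200 (-2.16) and SORBI_3009G032900 (-1.73), SORBI_3004G333900 (-2.51), SORBI_3007G089900 (-1.40), SORBI_3003G030600 of brassinosteroid synthesis (-0.75), SORBI_3007G025500 (-1.42) and the aquaporin SORBI_3001G195800 (-1.07). The others were the nitrate-annotated SORBI_3003G003600 (-0.77), the kinesin SORBI_3001G196000 (-0.67), SORBI_3010G066300 (-4.79), SORBI_3010G275100 (-3.49), SORBI_3001G468400 (-2.95), SORBI_3009G165500 (-5.85), SORBI_3003G246200 (-5.25) and SORBI_3009G227900 (-3.57).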

How the results depend on the processing

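The difference between the lines was called at 362 members, at 153 to 309 without 1 library and at 116 to 530 under the other settings. It was called at 297 members with a pseudocount of 0.1, 389 with a common median, 376 with a robust prior, 289 without moderation, 517 with one prior variance, and 528 and 530 with the fit restricted to loci of at least 1 FPKM or to members, where p-values were adjusted over fewer loci. The response was higher in Roma at 91 to 171 members without 1 library and lower at 61 to 149, and 110 members were lower by at least 1 on the log2 scale. The number lower in Roma was 257 with only members fitted and 259 with one prior variance, and the cause was not tested. The M-81E response was called at 271 to 575 members and the Roma response at 951 to 1483 without 1 library. Between 6 and 93 members fell in each of the 6 classes without 1 library. Over the 112 named members, 1555 of 2240 alternative values kept the call, 685 kept the direction only and 0 changed direction, and 86 of the 362 calls held under every alternative.

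Pairing by replicate number was not seen in the deviations of samples with the same number. These correlated at -0.085 to 0.053, and 0 of 18 pairs exceeded 0.1. Such correlations cannot exclude a pairing that touches only some of the loci. With the replicate block the difference was called at 116 members, 73 higher and 43 lower in Roma, the M-81E response at 256 and the Roma response at 1138.

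The depth of the libraries is unknown, so counting error cannot be separated from the spread between libraries, and the log2(FPKM + 1) scale understates changes at low levels. In simulated data with 3 libraries a group, 200 of 34352 loci were changed by 2 on the log2 scale and no other locus differed between the lines. Of the changed loci 66% were recovered, and 6 unchanged loci were called. The number of changed loci was set and is not that of these data, so 66% does not give the recovery here.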
